A study of Mus musculus with 8 samples.

Results

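The HoxC genes Hoxc4, Hoxc5, Hoxc6, Hoxc8, Hoxc9, Hoxc10, Hoxc11, Hoxc12 and Hoxc13 were examined for the peaks of Ezh2, H3K27me3 and Runx1. The members were taken by name and are 9 of 21883 protein-coding genes tested (autosomes, X and Y) and 9 of the 39 Hox genes. All 6 peak lists came from EML_C1, a stem cell factor-dependent mouse blood progenitor line. EML lines were made by putting a dominant-negative retinoic acid receptor into mouse bone marrow cells, so every group shares that block on retinoid signalling, as well as the C57BL/6 strain label, passage 4 to 5 and stem cell factor at 200 ng/ml. Each antibody had 2 replicate libraries. Chromatin for Ezh2 and Runx1 was crosslinked with 2 mM DSG for 60 min and 1% formaldehyde for 60 min, and that for H3K27me3 with 1% formaldehyde for 10 min only. The 2 input libraries, 1 for each fixation, were not analysed here. The labels do not say whether replicates were separate cultures, so the spread between them may be technical.

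Hox genes encode homeodomain transcription factors that set position along the body axis, and they stand in the genome in the order in which they are used. In mammals they form the HoxA, HoxB, HoxC and HoxD clusters, whose members with the same number are paralogues. Polycomb repressive complex 2, with Ezh2 as its catalytic subunit, places H3K27me3, the trimethylated lysine mark on histone H3, over silent Hox genes. Runx1 is a DNA-binding factor required for definitive blood formation. In blood progenitors, HoxA and HoxB genes are the Hox genes best known for activity, and HoxC members are better known from spinal cord, vertebrae, limb and skin.

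The cluster runs over chr15:102921131-103036856 (mm10), 115.7 kb from Hoxc13 at the low end through Hoxc12, Hoxc11, Hoxc10, Hoxc9, Hoxc8, Hoxc6 and Hoxc5 to Hoxc4 at the high end. The gene table gives spans without exons, so a peak can be placed inside or outside a gene but not in an exon, intron or UTR. Distances between neighbouring members ran from 667 bp (Hoxc5 to Hoxc4) to 15916 bp (Hoxc12 to Hoxc11). The cluster also holds microRNA genes that lay under the domain described below. Their mature sequences are shown because miR-196a is also made from a copy in HoxB and has a near relative in HoxA. The seed, bases 2 to 8, is in capitals, and sequences are from RefSeq (GRCm38.p6), 5′ to 3′.
mmu-miR-196a-5p (HoxC, Mir196a-2, and HoxB, Mir196a-1): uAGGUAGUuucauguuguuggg
mmu-miR-196b-5p (HoxA, Mir196b): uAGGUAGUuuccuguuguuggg
mmu-miR-615-3p (HoxC, Mir615): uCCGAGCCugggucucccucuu
The miR-196 forms share the seed AGGUAGU and differ by A12C, counted from the 5′ end of miR-196a-5p, a base outside the seed. MicroRNAs of the miR-196 family are known to pair with Hox messages, with Hoxb8 the textbook target. The Ezh2 and H3K27me3 peaks of both replicates lay over the miR-196a sequence of HoxC and also over that of HoxB. Over the miR-196b sequence of HoxA, Ezh2 had a peak in 1 of 2 replicates and H3K27me3 in both. The miR-615 sequence, inside Hoxc5, likewise had Ezh2 in 1 of 2 replicates and H3K27me3 in both. No Runx1 peak lay over any of these sequences.

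Of the members, only Hoxc4 had an entry among the 32851 promoter sequences, at chr15:103034145-103034444 on the plus strand. That window lies inside the Hoxc4 span, 16.0 kb from its low end and 2.41 kb from its high end. It is shown because Ezh2 peaks lay over 300 and 277 of its bases in replicates 1 and 2 and H3K27me3 peaks over all 300 in both, while no Runx1 peak touched it. The CG pairs are in capitals.
Hoxc4 promoter: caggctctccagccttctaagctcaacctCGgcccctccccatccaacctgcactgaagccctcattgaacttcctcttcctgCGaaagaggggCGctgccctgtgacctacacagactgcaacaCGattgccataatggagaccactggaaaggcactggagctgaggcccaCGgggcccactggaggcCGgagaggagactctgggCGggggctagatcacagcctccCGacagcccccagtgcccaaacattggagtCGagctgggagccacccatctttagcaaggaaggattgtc
Its GC content was 60.3% and it held 9 CG pairs, against medians of 52.7% and 7 over all promoters. Neither the RUNX core TGTGGT nor the YY1 core GCCATNTT was found on either strand. They occur in 16.8% and 6.05% of all promoters of the same length.

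A call for a gene required that a deposited peak lay over its span or the 1 kb on either side in both replicates, by at least 1 bp. All 9 members were called for Ezh2, against 31.4% of protein-coding genes. All 9 were also called for H3K27me3, against 39.2% of genes. Runx1 was called at 1 member, Hoxc4, against 59.9% of genes. The shares of genes given here are over genes of every length, and gene length was not matched. The lists reach down to peaks with p just under 0.05, so calls were repeated at stricter q-values. At q of at most 0.01, Ezh2 was called at 9 members (16.0% of genes), H3K27me3 at 7 (5.24%) and Runx1 at 1 (54.8%). The members without an H3K27me3 call there were Hoxc13 and Hoxc4, those at either end. Both had such a peak in replicate 1, and in replicate 2 the Hoxc5 call rested on 4.76% of its window. At q of at most 1e-05, Ezh2 was still called at 9 members (6.78% of genes), and H3K27me3 (0.553%) and Runx1 (50.4%) at 0. The q-values of H3K27me3 come from broad peaks and another input, so the same q is not the same strictness for it. No test was computed. With 2 libraries against 2, an exact permutation test cannot go below a two-sided p of 0.333.

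Extent set the members apart from genes at large more than presence did, but HoxB genes shared it for H3K27me3. Ezh2 peaks covered at least 80% of the gene plus 1 kb in both replicates at 6 of the 9 members, against 0.0960% of genes (21 in all), so 6 of those 21 genes were HoxC genes. The other Hox genes among them were Hoxb8 and Hoxb6, and no HoxA or HoxD gene was. The remaining 13 genes were mostly short, with a median span of 2074 bp against 4420 bp for the 6 HoxC genes. H3K27me3 reached the same extent at 8 of the 9 members, against 1.37% of genes. HoxB reached it at 8 of 10 genes, HoxA at 2 of 11 and HoxD at 1 of 9. The median HoxB gene had 85.3% and 71.6% under Ezh2 and 100% and 100% under H3K27me3 in replicates 1 and 2. The median gene of the whole table had 0% covered by either in both replicates, and the median HoxC gene had 91.6% and 87.2% under Ezh2 and 100% and 100% under H3K27me3 in replicates 1 and 2.

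**Figure D1:**
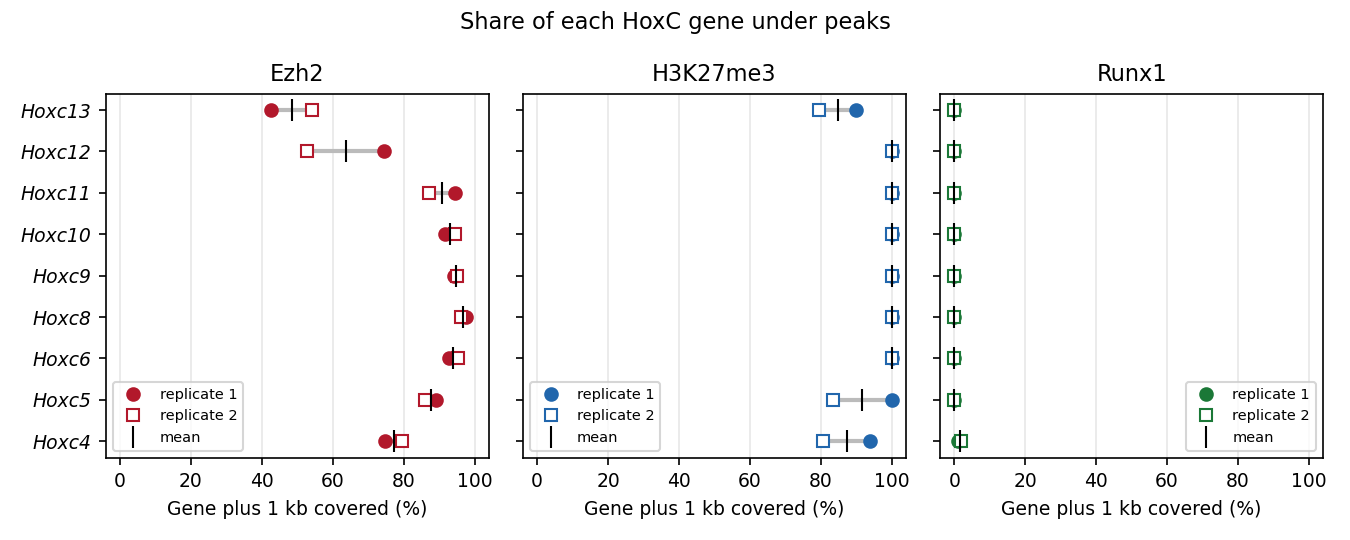
Percent of each HoxC gene plus 1 kb either side covered by deposited peaks of Ezh2, H3K27me3 and Runx1, genes in map order. Circles and squares are replicates 1 and 2 and the tick is their mean; Ezh2 cover is highest from Hoxc11 to Hoxc5 and lowest at Hoxc13, and Runx1 is at 0 except for Hoxc4.

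Cover by Ezh2 was highest in the middle of the cluster and fell off towards both ends, as the plot of cover by gene shows. Hoxc8, which helps to pattern thoracic vertebrae and brachial motor neurons, had 97.5% and 96.0% of its window covered in replicates 1 and 2 (96.8% ± 1.04, SD, n = 2). Hoxc9, a thoracic motor neuron determinant, had 94.3% and 95.0% (94.6% ± 0.488). Hoxc6, expressed in brachial motor neurons and mammary tissue, had 92.7% and 95.4%. These neighbours lay within a few percent of each other, and Hoxc8 was above Hoxc9 in both replicates without overlap. Hoxc10, a lumbar motor neuron and hindlimb gene, had 91.6% and 94.6%. Hoxc11, which acts with its paralogues in kidney and hindlimb, had 94.3% and 87.2%, and Hoxc5 had 89.2% and 86.1%. From Hoxc9 down to Hoxc5, neighbours in the order overlapped between replicates.

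The end genes stood lower. Hoxc4, the longest member at 18760 bp and the HoxC gene best known from lymphocytes, had 74.8% and 79.6% of its window under Ezh2. Both values were below those of Hoxc5. Hoxc12 had 74.4% and 52.8%, and Hoxc13, required for hair and nails, had 42.7% and 54.3%. Hoxc12 lay below Hoxc4 in both replicates, narrowly so in replicate 1, and Hoxc12 and Hoxc13 overlapped. H3K27me3 cover was 100% in both replicates at Hoxc12, Hoxc11, Hoxc10, Hoxc9, Hoxc8 and Hoxc6. It was 100% and 83.4% at Hoxc5, 93.9% and 80.8% at Hoxc4, and 89.9% and 79.5% at Hoxc13, with overlapping ranges. At q of at most 0.01, these 3 genes kept 100%, 93.9% and 86.9% in replicate 1 but 4.76%, 0% and 0% in replicate 2, and Ezh2 cover of Hoxc13 was 22.7% and 26.5%. Under Ezh2 at that q, Hoxc12 had 74.4% and 37.1% and Hoxc4 68.2% and 74.8%, and their ranges overlapped. By mean, as deposited and at that q, Hoxc12 combined full H3K27me3 cover with one of the 2 lowest Ezh2 covers.

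The height of Ezh2 peaks, as the fold enrichment over input written by the authors' peak caller, peaked in Hoxc9 but did not follow cover gene by gene. The strongest Ezh2 peak of the cluster had its summit inside Hoxc9 in both libraries, with folds of 13.6 and 12.1 and summits 120 bp apart. In replicate 1 it was 13751 bp wide (chr15:102979519-102993269) and ran on into Hoxc8; in replicate 2 it was 9745 bp wide. The cluster held 57 Ezh2 peaks in replicate 1 and 61 in replicate 2, and 56 and 59 of them touched a peak of the other replicate. With Ezh2 over 84.7% and 85.3% of the cluster, such contact shows little beyond that cover. The median fold of the cluster's peaks was 4.36 and 3.87, against 2.50 and 2.40 over the whole lists. Of these peaks, 47 and 42 had q of at most 0.01, while 20.2% and 14.1% of the whole lists did.

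Taking each peak once, the next strongest pairs mostly had their summits between genes. A pair between Hoxc11 and Hoxc10 (chr15:102959348-102965554 in replicate 1) had folds of 9.69 and 10.5, but its summits lay 2005 bp apart. A pair between Hoxc13 and Hoxc12 (chr15:102932778-102935504) had 11.2 and 6.23 with summits 33 bp apart. The fourth pair, between Hoxc8 and Hoxc6 in replicate 1, had 8.17 and 9.03, and its replicate 2 summit was 7126 bp away inside Hoxc6. The fifth, between Hoxc10 and Hoxc9 (chr15:102970101-102974579), had 9.66 and 7.05 with summits 14 bp apart. It covers Mir196a-2, the source of the miR-196a sequence shown above. Of 42 such pairs in the cluster, 23 had summits within 150 bp of each other.

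**Figure D2:**
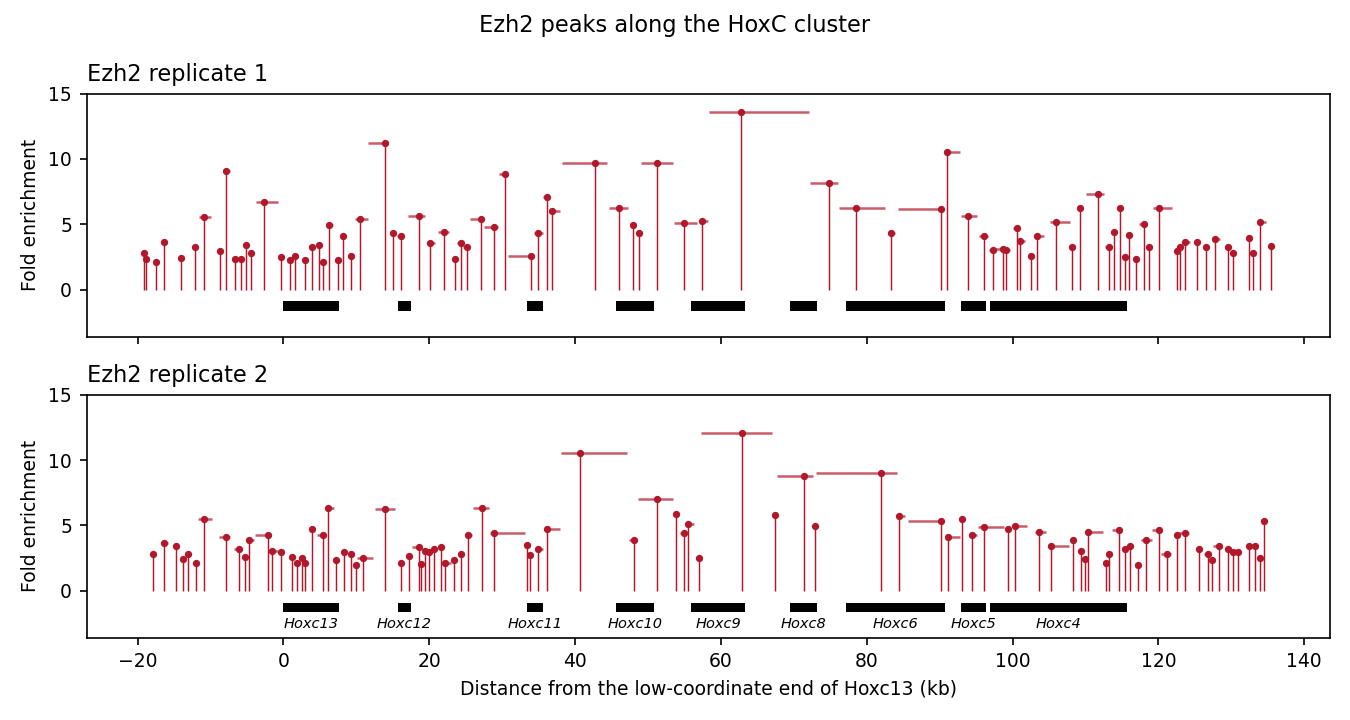
Ezh2 peaks along the HoxC cluster in replicates 1 and 2, with distance from the low-coordinate end of Hoxc13 in kb and fold enrichment on a linear axis. Dots are summits, horizontal lines peak widths and black bars genes; the highest summit is in Hoxc9 in both replicates, at 13.6 and 12.1.

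Among the end genes, the highest fold of an Ezh2 peak with its summit in the window was 4.92 and 6.37 at Hoxc13, 4.31 and 2.66 at Hoxc12 and 7.33 and 4.94 at Hoxc4. All lie below both Hoxc9 values, but not below every middle gene, since Hoxc5 had 5.67 and 5.48 and Hoxc11 7.08 and 4.71. The values of Hoxc12 and of Hoxc4 came from different peaks in the 2 replicates. Hoxc8 had no Ezh2 summit in its window in replicate 1. For H3K27me3, single folds do not separate the middle genes, because they shared peaks. One broad peak of 69347 bp in replicate 1 ran from before Hoxc10 into Hoxc4 and touched 6 members, and one of 53705 bp in replicate 2 touched 4, from Hoxc10 to Hoxc6. Their folds were 3.43 and 2.78. The cluster held 5 H3K27me3 peaks in replicate 1 and 11 in replicate 2, and as deposited the replicates covered similar shares of the cluster. At q of at most 0.01 they did not, with 96.0% covered in replicate 1 and 68.4% in replicate 2.

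Over the whole cluster, Ezh2 peaks covered 84.7% and 85.3% and H3K27me3 peaks 96.0% and 90.4%. Over chromosome 15, measured from its first to its last peak in any list, they covered 2.40% ± 0.258 and 11.4% ± 4.23. Measured as a whole cluster like HoxC, HoxB had 57.4% and 54.3% under Ezh2 and 90.7% and 75.7% under H3K27me3. HoxA had 26.2% and 18.0%, and 74.0% and 51.6%. HoxD had 15.3% and 16.4%, and 49.6% and 30.7%. Positions covered in both replicates made up 78.3% of the HoxC cluster for Ezh2 and 89.2% for H3K27me3. Ezh2 cover was not concentrated on genes. It was 80.4% and 82.4% inside the gene spans and 89.9% and 88.7% between them, with no overlap between replicates; H3K27me3 overlapped, at 94.3% ± 4.64 inside and 91.8% ± 3.15 between. Within the cluster, no stretch free of Ezh2 peaks in both replicates was longer than 855 bp. All 4 such stretches of 500 bp or more lay in Hoxc13, in Hoxc12 or between them. The lncRNA gene Hotair, between Hoxc12 and Hoxc11 and known for its link to Polycomb, had 79.3% ± 0.937 (SD, n = 2) of its window under Ezh2. Its H3K27me3 cover, 63.9% and 69.2%, was below that of its neighbours Hoxc12 and Hoxc11, and H3K27me3 breaks of 1039 and 455 bp common to both replicates lay inside it.

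H3K27me3 peaks lay over 97.6% and 92.6% of the bases under Ezh2 in the cluster, and Ezh2 peaks over 86.1% and 87.4% of those under H3K27me3. These shares lie close to the plain cover of the cluster by each antibody, 96.0% and 90.4% for H3K27me3 and 84.7% and 85.3% for Ezh2, so with cover this high they show little beyond it.

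Domain borders were taken by joining peaks over gaps of up to 3 kb. The Ezh2 domain then ran over chr15:102885400-103076883 in replicate 1 and chr15:102867534-103071075 in replicate 2, 191.5 and 203.5 kb. It reached 35.7 and 53.6 kb past Hoxc13 and 40.0 and 34.2 kb past Hoxc4. At this setting the H3K27me3 domain was wider, 245.3 and 242.2 kb (chr15:102902839-103148111 and chr15:102904918-103147117). With q of at most 0.01, or with gaps of 1 or 10 kb, the Ezh2 domain was the wider one in both replicates. At 10 kb the difference was slight. On the Hoxc13 side the H3K27me3 domain ended 18.3 and 16.2 kb past the gene, inside the Ezh2 border. The breaks that ended it, 3.5 and 3.8 kb, were just over the joining limit. From Hoxc13 to the next protein-coding gene, Calcoco1, H3K27me3 covered 78.1% and 56.9% and Ezh2 36.3% and 39.0%. On the Hoxc4 side the H3K27me3 domain reached 111.3 and 110.3 kb past the gene. It ended 5.18 and 6.17 kb before Smug1, a uracil-DNA glycosylase gene of base excision repair. The next H3K27me3 peak beyond that border was 17.7 and 19.8 kb away, while beyond the other borders the next peak followed within 3.15 to 4.39 kb. Of these borders, only that of H3K27me3 on the Smug1 side stayed in place when gaps of up to 10 kb were joined; with gaps of 1 kb it lay inside Hoxc4, -8.00 and -12.7 kb beyond the gene's high end.

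With gaps of up to 10 kb joined, both antibodies gave nearly the same domain in all 4 libraries. It was 425.8 and 425.0 kb wide for Ezh2 and 423.0 and 422.1 kb for H3K27me3. It began 1.66 and 1.45 kb (Ezh2) and 2.92 and 2.88 kb (H3K27me3) after the end of Calcoco1, a coiled-coil coactivator gene. It ended 3.64 and 4.70 kb, and 5.18 and 6.17 kb, before Smug1. No protein-coding gene other than the HoxC members lies between Calcoco1 and Smug1. Inside this stretch, Ezh2 covered 37.7% ± 1.95 from Calcoco1 to Hoxc13, 85.0% ± 0.427 of the cluster and 63.0% ± 0.790 from Hoxc4 to Smug1. H3K27me3 covered 67.5% ± 15.1, 93.2% ± 3.97 and 84.5% ± 6.64. From the low end of Smug1 to 300 kb above Hoxc4, cover was 7.70% ± 0.200 and 8.44% ± 1.08. From 300 kb below Hoxc13 to the end of Calcoco1, it was 10.1% ± 1.48 and 16.3% ± 4.03. A further block of both marks lay beyond each of these genes. From 250 to 260 kb above the low end of Hoxc13, past Smug1, Ezh2 covered 76.4% ± 2.57 and H3K27me3 95.6% ± 6.27. From 230 to 220 kb below it, past Calcoco1, they covered 64.7% ± 6.46 and 76.6% ± 11.5.

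Ezh2 peaks with mean folds somewhat below the 12.8 ± 1.05 of Hoxc9 stood outside the cluster but inside the wide domain. Their replicate ranges overlapped that of Hoxc9, and they were picked out after their values were seen. One at chr15:102742874-102749686, 174.4 kb below Hoxc13 and over the lncRNA genes Gm36560 and Cistr, had a fold of 12.1 ± 1.38 (SD, n = 2). One at chr15:103113417-103118871, 78.6 kb above Hoxc4 and over no listed gene, had 13.4 and 10.5. One at chr15:103145466-103148391 had 13.9 and 9.94 with summits 2 bp apart, and lay across the H3K27me3 border before Smug1. In that order, their −log10 q values were 100.3 and 65.8, 49.8 and 32.7, and 129.7 and 74.3. The Hoxc9 peak had 60.1 and 41.4, so by q the first and last stood above it in both replicates.

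**Figure D3:**
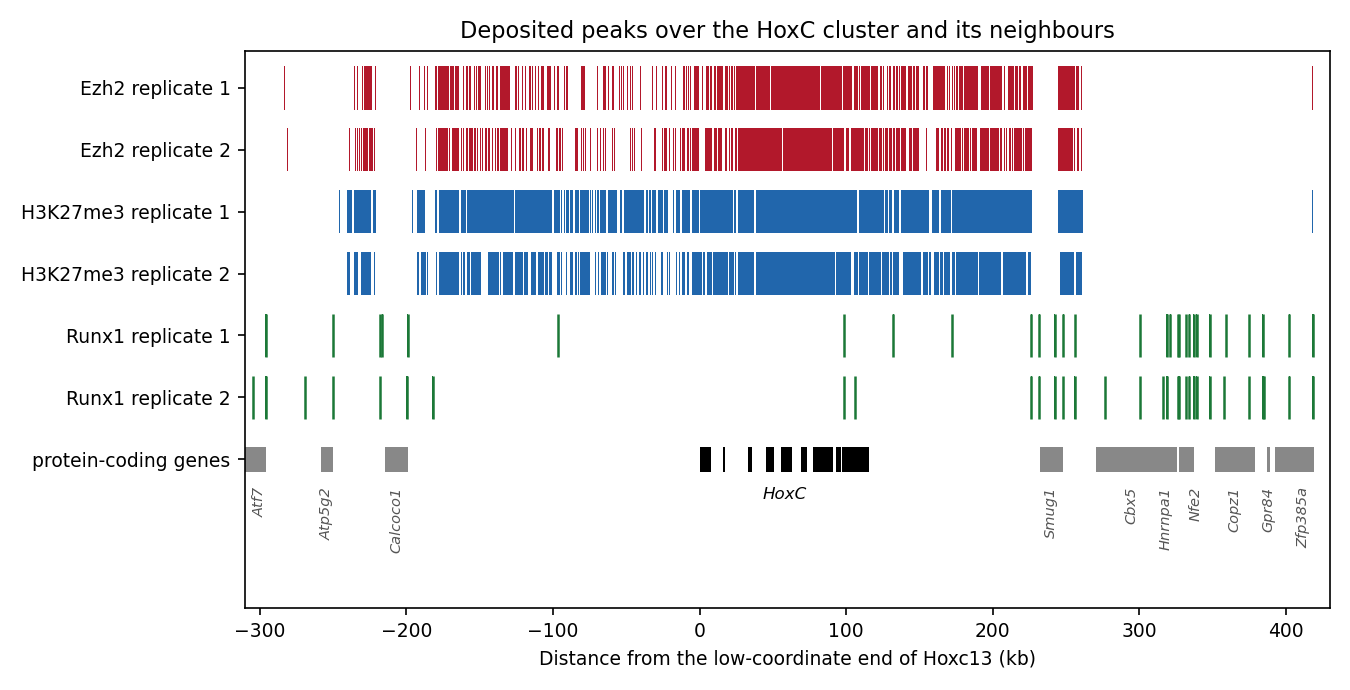
Deposited peaks of the 6 libraries by distance from the low-coordinate end of Hoxc13 in kb, with HoxC genes in black and other protein-coding genes in grey; Runx1 peaks are drawn as lines of fixed width at their midpoints. Ezh2 and H3K27me3 peaks run across the stretch between Calcoco1 and Smug1, where Runx1 has few peaks. Ezh2 is sparser from Calcoco1 to Hoxc13, at 36.3% and 39.0% cover, and Runx1 peaks gather at the flanking genes.

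Most protein-coding genes around the domain lacked Ezh2 and H3K27me3 peaks and carried Runx1. Of all protein-coding genes, 31.4% were called for Ezh2, 39.2% for H3K27me3 and 59.9% for Runx1. None of these states is therefore rare on its own, and the share of all genes with the combination was not computed. Of the 10 protein-coding neighbours within 300 kb, Calcoco1, Atp5g2, Cbx5, Hnrnpa1, Nfe2 and Copz1 had no Ezh2 or H3K27me3 peak in any library and a Runx1 peak in both replicates. Nfe2, an erythroid and megakaryocytic transcription factor gene 211.4 kb from the cluster, had the highest Runx1 fold among them, 48.7 and 48.6. Calcoco1 had a Runx1 peak with folds of 22.0 and 23.7. Smug1 carried peaks of every antibody: its strongest Runx1 peak, just before the low end of the gene, had folds of 11.8 and 18.9, and its window also held an Ezh2 peak (9.54 and 7.33) and an H3K27me3 peak (3.49 and 2.68), covering 24.1% and 23.7% and 23.2% and 17.1%. Gpr84 had no peak of any antibody. Atf7 had no Ezh2 peak, H3K27me3 over under 1% of its window in both replicates and Runx1 in both. Zfp385a had Ezh2 and H3K27me3 in replicate 1 only and Runx1 in both.

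The Runx1 call at Hoxc4 rested on one narrow peak at chr15:103019362-103019658, 1265 bp inside the low end of the gene and 14.5 kb from the promoter window shown above. Its fold was 3.24 in replicate 1 and 4.70 in replicate 2, with −log10 q of 2.78 and 8.51. By fold, 52.6% and 62.8% of the peaks in the respective Runx1 lists were weaker, so it was of middling height in its lists. All 297 bases lay under Ezh2 and under H3K27me3 peaks in both replicates. Replicate 2 had a further Runx1 peak in Hoxc4 at chr15:103027009-103027177 (fold 2.27), absent from replicate 1. No Runx1 peak lay between the genes of the cluster in either library. Runx1 covered 0.175% and 0.364% of the cluster, against 1.02% ± 0.0369 of chromosome 15 between its first and last peak. Whether Hoxc4 was called because it is the longest member was not tested.

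Beside its paralogues, a HoxC gene usually had more of its window under Ezh2. In 14 of 20 pairs with a HoxA, HoxB or HoxD gene of the same number, the HoxC gene was higher with no overlap between replicates. The replicates overlapped against Hoxb5, Hoxb8, Hoxd12, Hoxa13 and Hoxd13. In 1 pair the HoxC gene was lower: Hoxb13 had 85.1% and 78.8% and Hoxc13 42.7% and 54.3%. By mean, the widest gap was that to Hoxa6, which had 13.1% and 1.32% where Hoxc6 had 92.7% and 95.4%. Hoxa5 (0% and 4.24%), Hoxd8 (16.0% and 10.9%) and Hoxd4 (0% in both) also lay far below their HoxC paralogues. Hoxa9, the HoxA gene best known from leukaemia, had 63.6% and 55.1%, below Hoxc9. Hoxb8 (96.4% and 94.2%) could not be told from Hoxc8. For H3K27me3 the HoxC gene was higher without overlap in 11 of 20 pairs and lower in 1, again against Hoxb13.

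**Figure D4:**
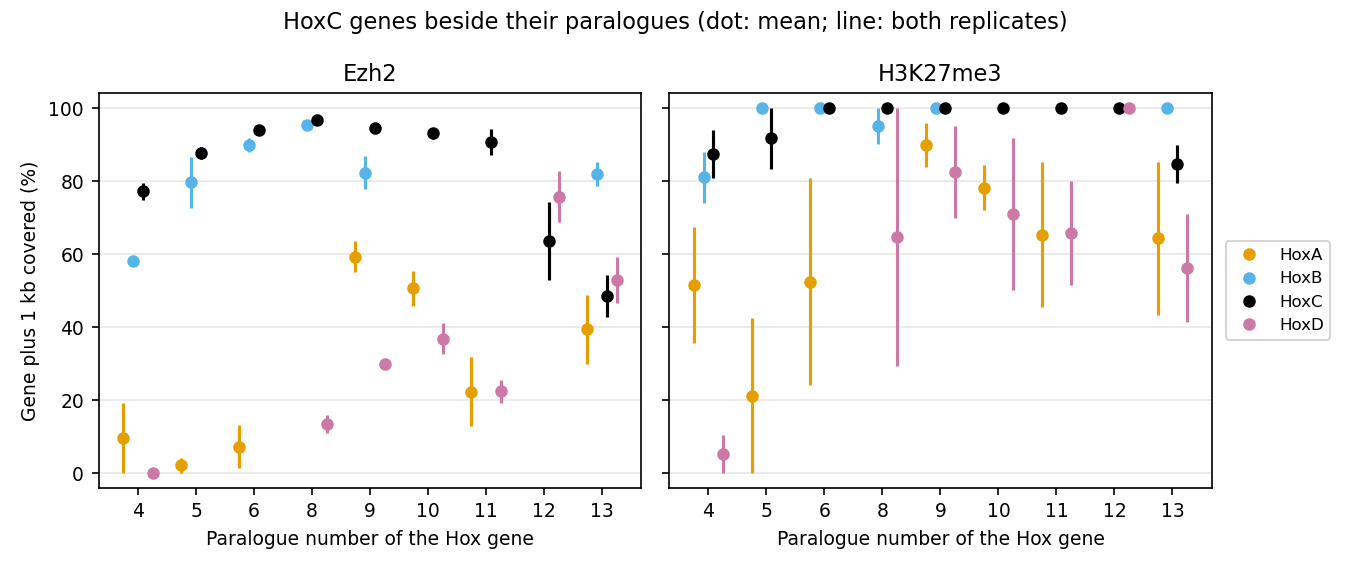
Percent of the gene plus 1 kb covered by Ezh2 and H3K27me3 peaks for HoxC genes and their paralogues, by paralogue number. Dots are means and lines join both replicates; HoxC lies highest for Ezh2 from numbers 4 to 11 and below HoxB at 13.

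Other Hox genes were also called for Ezh2, as 10 of 10 in HoxB, 8 of 11 in HoxA and 7 of 9 in HoxD. For Runx1 the calls were Hoxb3, Hoxd10 and Hoxd3, and no HoxA gene. A further list held 21 genes for Hox cofactors (Pbx, Meis and Pknox families) and for Hox regulators of the Polycomb and Trithorax kind. Of these, 6 were called for Ezh2, 6 for H3K27me3 and 19 for Runx1, against 31.4%, 39.2% and 59.9% of all genes. For the first 2 that is no larger a share, and gene length was not matched. None of the 21 was covered to 80% by Ezh2 or H3K27me3. Meis1, the Hox cofactor gene best known from blood stem cells, was called for Ezh2 and Runx1 but not for H3K27me3, and its Ezh2 call was lost at q of at most 0.01, where Meis3, Pknox2 and Jarid2 were the 3 left. Of 8 genes that mark blood progenitors, among them Kit, Cd34 and Gata2, 0 were called for Ezh2 or H3K27me3 and 8 for Runx1. At q of at most 0.01, Runx1 was called at 7 of them, without Ly6a, against 54.8% of all genes. Peak lists do not give expression, and such calls are common among all genes. They could not serve to check the labelled cell type.

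Outside HoxC, the genes whose cover over the 6 libraries was most like the members' mean, among 9106 genes of comparable window length, were Dusp15, Helt, Dlx4, Hoxb13 and Hoxb9. Their Euclidean distances from the mean ran from 4.28 to 8.66 percentage points. The members themselves lay farther from it, from 12.5 (Hoxc5) to 52.2 (Hoxc13), so the mean describes no single member closely. Dusp15, the closest, had 80.6% and 82.8% under Ezh2 and 95.7% and 93.7% under H3K27me3, with Runx1 over 2.01% in replicate 1 and 0% in replicate 2. The members' mean was 83.5% and 82.3% under Ezh2 and 98.2% and 93.7% under H3K27me3.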

How the data were processed

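Tools listed in the submitters' processing notes are MACS2 2.0.10, Bowtie2 2.2.1, SAMtools and Picard, without role or parameters, and the build is mm10. The authors deposited 1 peak list per antibody library, narrow for Ezh2 and Runx1 and broad for H3K27me3. Each deposited peak has a fold enrichment, a linear ratio, as well as p- and q-values on the −log10 scale. The deposited score was not used. The deposited summit offset of narrow peaks was used for summit positions. The sources used here give no read totals, and the depth behind a peak is unknown. The lists hold from 64059 to 220455 peaks, and their weakest peaks have p of 0.0493 to 0.0499. A longer list covers more sequence.

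Gene spans came from a RefSeq table of GRCm38.p6, whose coordinates are those of mm10, and all 9 members matched. Percent covered is the share of a span plus 1 kb either side under merged peaks, computed per replicate with Python 3.11.15, numpy 2.4.6 and pandas 2.3.3, and checked on simulated intervals. An ± is the SD over 2 replicates. Genes within 300 kb count as neighbours. Named were all members, their paralogues, the neighbours, non-coding genes inside the cluster, the 5 strongest Ezh2 peaks by mean fold and the 5 genes most like the members over 6 values. The strongest pairs were counted with each peak used once, a rule set after the peaks were seen. The members and lists were chosen with earlier results of these data known.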

Additional observations from a re-analysis of the deposited data

How the results depend on the processing

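All values rest on 2 libraries per antibody and on peak lists, so cover depends on where the authors' caller stopped. No paired analysis was possible because no result comes from a test. The Ezh2 calls stayed at 9 of 9 members under every alternative, and the members covered to 80% by Ezh2 numbered from 4 to 6, with 8 covered to 50%. With q of at most 1e-05, H3K27me3 gave 0 called members, 0 mostly covered members, 0% of the cluster and no domain. Runx1 calls went from 1 to 0 with q of at most 1e-05, with the 10000 strongest peaks or with an overlap of 500 bp, and to 2 with flanks of 5 kb, where the peak in Hoxc4 also reaches Hoxc5's window. Ezh2 cover of the cluster was 79.6% with q of at most 0.01, 70.6% with 1e-05, 73.0% with the 10000 strongest peaks and 84.4% with 1 kb either side. H3K27me3 cover was 82.2% with q of at most 0.01 and 86.0% with the 10000 strongest peaks, and Runx1 cover 0.109% with 1e-05 and 0% with the 10000 strongest. The Ezh2 domain measured 141.0 kb (q of at most 0.01), 71.0 kb (1e-05), 136.4 kb (1 kb gaps) and 425.4 kb (10 kb gaps). The H3K27me3 domain measured 104.1 kb (0.01, the mean of 125.5 and 82.8 kb), 79.2 kb (1 kb gaps) and 422.5 kb (10 kb gaps). Mean borders moved inside the cluster in these cases, given in kb beyond the end gene. For Ezh2 they were -8.10 (0.01) and -29.7 (1e-05) at Hoxc13 and -15.1 (1e-05) at Hoxc4. For H3K27me3 they were -4.81 (0.01) and -26.2 (1 kb gaps) at Hoxc13 and -6.78 (0.01) and -10.3 (1 kb gaps) at Hoxc4. The -6.78 averages replicates that differ in sign, 10.0 outside the cluster and -23.6 inside it. A single replicate gives the values printed per replicate in the report, with cluster cover of 84.7 to 85.3% for Ezh2, and H3K27me3 then covers 8 or 9 members to 80%. Fewer peaks enter under the stricter settings, and fewer are joined with shorter gaps.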
